A study of Homo sapiens with 6 samples.

Results

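The genes described here are 8 genes of the HOXA cluster (HOXA3, HOXA5, HOXA6, HOXA7, HOXA9, HOXA10, HOXA11 and HOXA13) and the genes of their DNA-binding partners MEIS1 and PBX3. They were chosen by gene symbol, 10 of the 43424 symbols listed. Libraries came from wild-type cells labelled HL-60, a human acute myeloid leukaemia line grown in RPMI-1640 medium with serum. The CIP group (3 libraries) had been cultured for 6 months with the plant preparation Corydalis incisa (Thunb.) Pers., abbreviated CIP, at concentrations raised from 2 to 20 µg/ml, and the series calls the outcome CIP-resistant cells. The DMSO group (3 libraries) had been cultured with DMSO for the same time. The series set out to find genes with a part in the differentiation of leukaemia cells under CIP. The comparison is between a selected population and a culture kept with DMSO, with no library from a short exposure.

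HOX proteins are homeodomain transcription factors whose genes stand in clusters and give cells their position along the body axis. In blood, the HOXA genes together with MEIS1 are active in stem and progenitor cells and are turned down as myeloid cells mature. MEIS and PBX proteins belong to the TALE class of homeodomain proteins and bind DNA beside HOX proteins. In acute myeloid leukaemia with rearranged KMT2A or mutated NPM1, high HOXA9, MEIS1 and PBX3 are well known to keep cells immature.

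Expression was read with QuantSeq, a 3' end method that makes a single fragment per messenger RNA close to its poly(A) tail, so a count does not grow with transcript length. Levels are given as CPM, a fixed multiple of the count over the library total, where totals were first scaled by TMM, a correction for unequal RNA composition. Total counts were 9314584 to 10868396 in CIP libraries and 8143657 to 9759687 in DMSO libraries, and 3 counts in a library correspond to 0.287 to 0.346 CPM. In bulk RNA, fewer cells with a transcript and less of it per cell cannot be told apart. Whether the 3 replicates of a label were grown apart is not stated, and p-values here rest on the spread among the 6 libraries, which may be technical.

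The libraries do not read as variants of a single cell state. MPO, the myeloperoxidase typical of HL-60, averaged 8667 ± 282 CPM in CIP libraries and 1.12 ± 0.324 CPM in DMSO libraries (SD, n = 3 each). MYC, which HL-60 is known to carry in extra copies, averaged 279.6 ± 52.2 CPM in CIP libraries and 41.76 ± 3.9 CPM in DMSO libraries. All 7 promyelocyte markers summed to 9530 to 10000 CPM in CIP libraries and 1740 to 1840 CPM in DMSO libraries. In CIP libraries most of that sum was MPO, and the median log2 fold change of the 7 (CIP over DMSO) was -0.49. Besides MPO, PRTN3 and CD33 were called higher in CIP libraries and ELANE, AZU1, CTSG and ANPEP lower. Erythroid and megakaryocyte markers summed to 0 to 0.302 CPM in CIP libraries and 0 to 0.113 CPM in DMSO libraries. Monocyte markers summed to 16.3 to 23.3 CPM in CIP libraries and 265 to 283 CPM in DMSO libraries, with CD14 at 2 counts in CIP libraries and 0 in DMSO libraries. Under both labels most of that sum was LYZ (mean 17.73 CPM in CIP and 231.9 CPM in DMSO libraries). CD68 and FCN1 were also lower in CIP libraries, and CSF1R, which was not tested, had 18 counts in CIP libraries and 25 in DMSO libraries. Lymphoid markers summed to 3.32 to 4.62 CPM in CIP libraries and 81.2 to 103 CPM in DMSO libraries, with CD3D and CD3E at 0 in every DMSO library. Most of the DMSO sum was NKG7 (mean 79.52 CPM), with PAX5 at a mean of 7.989 CPM, and CD79A was not called. Markers of stroma and epithelium summed to 51.6 to 125 CPM in CIP libraries and 128 to 217 CPM in DMSO libraries, and the 4 tested were not called. The MPO and MYC values of the DMSO libraries are low for cells labelled HL-60. The reason was not tested, so the groups are named by their labels. The part of these marker differences in the results below was not tested. Whether culture, CIP, DMSO or the identity of the cells sets the differences below cannot be told apart.

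For 4 members on which the results turn, the promoter is shown as RefSeq gives it (GRCh38.p14), from 250 bases before to 50 after the annotated start. They are the HOXA member with the largest change (HOXA10), the HOXA member that changed in the opposite direction (HOXA7), the gene whose start lies beside the noncoding gene HOTTIP (HOXA13) and the partner gene read under a single label (MEIS1). Capitals mark TGACAG, the core recognised by MEIS proteins, or TATAAA, the TATA box, on either strand.
HOXA10 promoter window, chr7:27179812-27180111, minus strand: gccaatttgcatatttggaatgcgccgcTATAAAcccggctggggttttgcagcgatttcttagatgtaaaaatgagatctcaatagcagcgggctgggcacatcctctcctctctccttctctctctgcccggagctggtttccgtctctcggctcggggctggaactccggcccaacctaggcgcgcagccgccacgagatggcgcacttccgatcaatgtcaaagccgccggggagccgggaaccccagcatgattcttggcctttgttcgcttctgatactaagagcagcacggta
HOXA7 promoter window, chr7:27156626-27156925, minus strand: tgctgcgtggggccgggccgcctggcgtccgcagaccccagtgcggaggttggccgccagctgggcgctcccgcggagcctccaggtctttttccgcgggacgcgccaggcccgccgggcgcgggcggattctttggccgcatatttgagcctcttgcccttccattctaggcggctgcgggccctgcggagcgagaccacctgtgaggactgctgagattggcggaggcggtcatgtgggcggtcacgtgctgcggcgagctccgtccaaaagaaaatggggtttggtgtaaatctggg
HOXA13 promoter window, chr7:27200042-27200341, minus strand: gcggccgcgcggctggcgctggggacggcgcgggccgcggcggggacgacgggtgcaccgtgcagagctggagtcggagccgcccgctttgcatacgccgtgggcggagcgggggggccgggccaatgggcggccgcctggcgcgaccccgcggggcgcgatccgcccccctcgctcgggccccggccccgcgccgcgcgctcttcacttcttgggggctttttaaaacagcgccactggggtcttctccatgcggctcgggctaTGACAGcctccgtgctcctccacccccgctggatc
MEIS1 promoter window, chr2:66434875-66435174, plus strand: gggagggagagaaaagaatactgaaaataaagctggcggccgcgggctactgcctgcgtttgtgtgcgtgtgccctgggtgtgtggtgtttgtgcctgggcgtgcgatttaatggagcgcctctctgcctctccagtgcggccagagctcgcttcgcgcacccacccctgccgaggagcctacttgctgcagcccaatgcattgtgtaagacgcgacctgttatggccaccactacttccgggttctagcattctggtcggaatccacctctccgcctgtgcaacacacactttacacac

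These windows differ in base composition. They hold 21 (HOXA10), 31 (HOXA7), 44 (HOXA13) and 18 (MEIS1) CpG pairs, against a median of 14 over the 35116 promoter windows of the table (quartiles 4 and 28). TATAAA is found in the HOXA10 window and TGACAG in the HOXA13 window. Over all windows 11.5% hold TATAAA and 15.8% hold TGACAG. Neither TGATNNAT, a paired HOX and PBX motif (found in 7.4% of windows), nor TTTANG, a motif of the HOX9 to HOX13 group (29.1%), has these letters in the 4 windows shown, and no overlap between motifs occurs in them. Over 16 windows of 9 members, PBX3 is the remaining gene with TGACAG, HOXA3 and HOXA9 hold TTTANG, and both also hold TATAAA. A match describes letters and is no evidence of binding.

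HOXA3, HOXA5, HOXA10, HOXA11, HOXA13, MEIS1 and PBX3 were lower in CIP libraries, and HOXA7 was higher. The 8 HOXA members together had 338, 357 and 381 counts in CIP libraries and 4393, 4323 and 3675 counts in DMSO libraries, which is 37.95 ± 1.31 CPM in CIP and 420.9 ± 11.5 CPM in DMSO (SD, n = 3 each). Of the 10 members, 8 passed the filter on low counts and were tested with edgeR's quasi-likelihood test, and all 8 were called at an adjusted p under 0.05, 1 higher (HOXA7) and 7 lower. Over all 12844 genes tested, 73.1% were called, 34.9% higher and 38.2% lower, so that being called is common in this comparison. The groups did not overlap in CPM for any of the 8, with CIP above in 1 and below in 7. Over all tested genes 75.5% did not overlap, 36.1% with CIP above and 39.3% with CIP below. The filter asks for about 1.05 CPM in 3 libraries, which HOXA3 reached in 1 CIP library and 3 DMSO libraries and MEIS1 in 0 CIP libraries and 3 DMSO libraries. These 2 genes passed through the DMSO libraries and had to come out lower, so their calls are descriptions. HOXA6 and HOXA9 did not pass the filter.

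**Figure D1:**
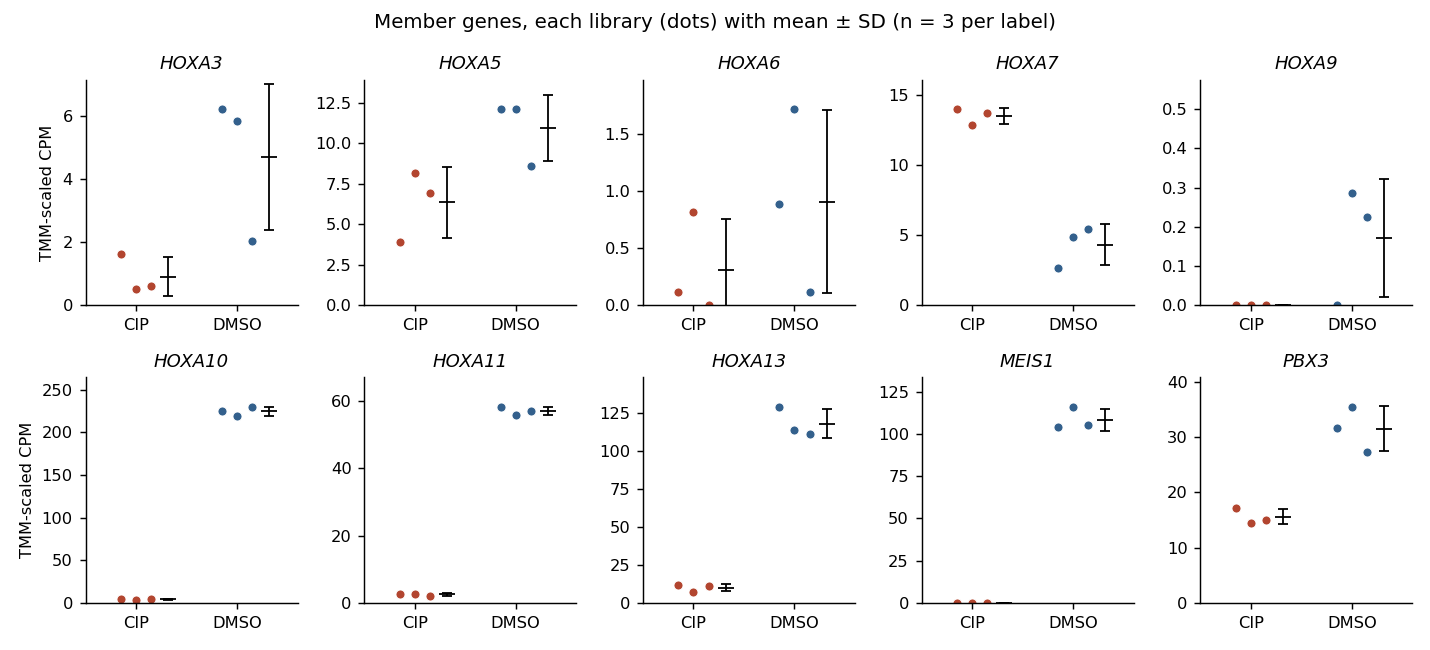
Level of the 10 genes in each library, in TMM-scaled CPM on axes that start at 0 and differ between panels. Dots are libraries (CIP on the left, DMSO on the right) and bars are the mean ± SD of 3 libraries. HOXA10, HOXA11, HOXA13 and MEIS1 are far lower in every CIP library, and HOXA7 is higher in every CIP library. HOXA6 and HOXA9 have few or no assigned counts under both labels.

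The posterior HOXA genes, HOXA10, HOXA11 and HOXA13, gave most HOXA reads in DMSO libraries and changed most among the 6 HOXA members tested. HOXA10 (chromosome 7, 27170605 to 27179861), a regulator of progenitor growth whose forced expression disturbs blood cell development in mice, had 4.73, 3.99 and 4.03 CPM in CIP libraries, against 225, 219 and 230 CPM in DMSO libraries. It was 52.9-fold lower (log2 fold change -5.73 ± 0.11, SE; edgeR adjusted p = 3.9e-31). The 3 libraries of each label lay close together and the groups were far apart. HOXA10 overlaps the antisense gene HOXA10-AS and the read-through gene HOXA10-HOXA9. Reads shared with HOXA10-AS cannot be separated where the strand setting is not given. HOXA10-HOXA9 lies on the same strand as HOXA10, so no strand setting would separate their shared reads.

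HOXA11 (27181157 to 27185232), known for its role in limb, kidney and uterus, had 2.77, 2.66 and 2.11 CPM in CIP libraries, against 58.2, 55.7 and 57.1 CPM in DMSO libraries. The log2 fold change was -4.50 ± 0.16 (edgeR adjusted p = 1.0e-22), or 22.7-fold lower. HOXA13 (27194364 to 27200091), the last gene of the cluster and a regulator of distal limb and hindgut, had 11.9, 7.46 and 11 CPM in CIP libraries, against 129, 114 and 111 CPM in DMSO libraries. It was 11.7-fold lower, with a log2 fold change of -3.55 ± 0.12 (edgeR adjusted p = 5.1e-23). For both genes every CIP library lay below every DMSO library. By log2 fold change, the order from the largest drop was HOXA10, HOXA11 and HOXA13, and the differences between these genes were not tested.

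Among the central and anterior HOXA genes the changes were smaller and went both ways. HOXA7 (27153716 to 27156675), a homeodomain factor of the central cluster, had 14, 12.9 and 13.7 CPM in CIP libraries, against 2.67, 4.88 and 5.42 CPM in DMSO libraries. Its log2 fold change was 1.65 ± 0.25 (edgeR adjusted p = 3.9e-07), 3.13-fold higher with the CIP label. Every CIP library lay above every DMSO library, and the direction was the same under each scaling tried (log2 fold change 1.42 with library totals alone). The antisense gene that overlaps HOXA7, HOXA-AS3, had 0 counts in CIP libraries and 2 in DMSO libraries, so few reads were given to it.

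HOXA5 (27141052 to 27143681), which promotes myeloid over erythroid fate in human progenitors, had 3.92, 8.18 and 6.95 CPM in CIP libraries, against 12.1, 12.1 and 8.58 CPM in DMSO libraries. The log2 fold change was -0.77 ± 0.25 (edgeR adjusted p = 0.0063). The highest CIP library and the lowest DMSO library were close in CPM and overlapped in counts (80 against 76), and without CIP replicate 1 the change was -0.52 ± 0.26 with an edgeR adjusted p of 0.069. HOXA3 (27107010 to 27152583), a regulator of pharyngeal organs, had 1.62, 0.511 and 0.604 CPM in CIP libraries, against 6.23, 5.84 and 2.03 CPM in DMSO libraries. It was 5.16-fold lower (log2 fold change -2.39 ± 0.49, edgeR adjusted p = 5.4e-05), and the log2 fold change was -3.04 without CIP replicate 1. Its annotated span covers HOXA4, HOXA5 and HOXA6, so reads may be shared with them.

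HOXA6 (27145396 to 27147774), between HOXA5 and HOXA7, had 1, 8 and 0 counts in CIP libraries, against 9, 18 and 1 counts in DMSO libraries. The groups overlapped and no difference was detectable at this depth. HOXA9 (27162438 to 27165537), the HOXA gene most often tied to leukaemia, had 0 counts in each CIP library, against 0, 3 and 2 counts in DMSO libraries. HOXA10-HOXA9, whose span holds all of HOXA9 and ends at the same base, had 0 counts in each CIP library, against 0, 2 and 2 counts in DMSO libraries. HTSeq, named in the processing notes, by default leaves out reads that fall in several genes, and its setting here is not given. Of 46 genes that share their 3' end with a listed read-through gene, 28 (60.9%) had no more than HOXA9's total of 5 counts over the 6 libraries, against 32.1% of the other 19511 protein-coding genes. A gene that is not transcribed and a gene whose reads were left out cannot be told apart here, so no statement on HOXA9 expression is made for either label.

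The composition of HOXA reads therefore differed between labels. HOXA7 gave 35.6% of the reads of the 8 HOXA members in CIP libraries (35.3% to 35.8% per library) and 1.02% in DMSO libraries (0.615% to 1.31%). HOXA10 gave 11.2% in CIP libraries and 53.3% in DMSO libraries. HOXA13 gave 26.5% in CIP libraries and 28.1% in DMSO libraries, and its ranges of 20.4% to 30.5% in CIP and 26.7% to 29.8% in DMSO overlapped. HOXA5 gave 17% in CIP libraries and 2.61% in DMSO libraries. These are shares of reads as assigned, and they leave out whatever HOXA9 reads were not counted.

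MEIS1 (chromosome 2, 66435125 to 66573869), the TALE partner that cooperates with HOXA9 in leukaemia, had 0 counts in every CIP library, against 1051, 1212 and 930 counts in DMSO libraries. In DMSO libraries that was 104, 116 and 105 CPM. Against 3 counts over the CIP group, which is 0.106 CPM, MEIS1 was at least 1020-fold lower (edgeR adjusted p = 1.9e-27). Inside MEIS1 the table lists a locus on the same strand, LOC124900511 (66548025 to 66561124), with 0 counts in every CIP library, against 796, 891 and 676 counts in DMSO libraries. How reads were divided between the pair is not given.

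PBX3 (chromosome 9, 125747373 to 125967377), a TALE partner that stabilises MEIS1 and binds with HOXA9, was the member kept at the highest CPM in CIP libraries. It had 17.1, 14.5 and 15.1 CPM in CIP libraries, against 31.7, 35.5 and 27.4 CPM in DMSO libraries. The log2 fold change was -1.02 ± 0.14 (edgeR adjusted p = 1.2e-07), 2.03-fold lower, and the groups did not overlap.

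Ordered by CPM, where each value is a level per polyadenylated end and not corrected for how well an end is captured, PBX3 led in CIP libraries, then HOXA7 and then HOXA13, without overlap among these 3. HOXA5 (3.92 to 8.18 CPM) overlapped with HOXA13 (7.46 to 11.9 CPM) and with HOXA10 (3.99 to 4.73 CPM), and HOXA11 and HOXA3 followed. In DMSO libraries HOXA10 led (219 to 230 CPM). HOXA13 (111 to 129 CPM) and MEIS1 (104 to 116 CPM) overlapped, then came HOXA11, PBX3 and HOXA5 without overlap, and HOXA3 (2.03 to 6.23 CPM) overlapped with HOXA7 (2.67 to 5.42 CPM).

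The rest of the HOXA cluster showed where along chromosome 7 the difference lay. HOTAIRM1, a myeloid noncoding RNA at the anterior end, had 14.9, 13.2 and 12.5 CPM in CIP libraries, against 12.8, 16.1 and 15.9 CPM in DMSO libraries, without a call (log2 fold change -0.14 ± 0.18, edgeR adjusted p = 0.48). The groups overlapped. HOXA4 had 1.38, 3.47 and 3.32 CPM in CIP libraries, against 1.58, 0.861 and 1.47 CPM in DMSO libraries. Its call as higher (log2 fold change 1.07 ± 0.47, edgeR adjusted p = 0.041) was lost in 10 of 15 alternatives, where the adjusted p reached 0.18, and its groups overlap.

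At the posterior end, noncoding genes were lower together with their coding neighbours. HOTTIP, whose product is known to recruit WDR5 to posterior HOXA genes in human fibroblasts, had 3, 10 and 0 counts in CIP libraries, against 45, 54 and 63 counts in DMSO libraries (log2 fold change -3.57 ± 0.54, edgeR adjusted p = 5.2e-07). The log2 fold change was -4.98 without CIP replicate 2, which held 10 of the 13 CIP counts, and -2.95 without CIP replicate 3. The HOTTIP promoter window shares 171 bases with that of HOXA13 printed above, on the opposite strand. HOXA11-AS had 1.38, 0.204 and 0.503 CPM in CIP libraries, against 29.9, 27.4 and 26.5 CPM in DMSO libraries (-5.35 ± 0.29, adjusted p = 1.3e-17; -6.24 without CIP replicate 1), and its window shares 275 bases with that of HOXA11. HOXA10-AS had 0 counts in each CIP library, against 39, 19 and 22 counts in DMSO libraries, at least 25.7-fold lower. HOXA2, HOXA-AS2, HOXA-AS3 and EVX1 had at most 5 counts in any library and were not tested. Of 10 other genes of the cluster, 5 were tested, with 1 called higher, 3 lower and 1 not called, and the 3 lower ones (HOTTIP, HOXA11-AS and HOXA10-AS) passed the filter through the DMSO libraries. HOXA4, the 1 called higher, reached the limit of the filter in 3 CIP libraries and 2 DMSO libraries, so it passed through the CIP libraries.

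**Figure D2:**
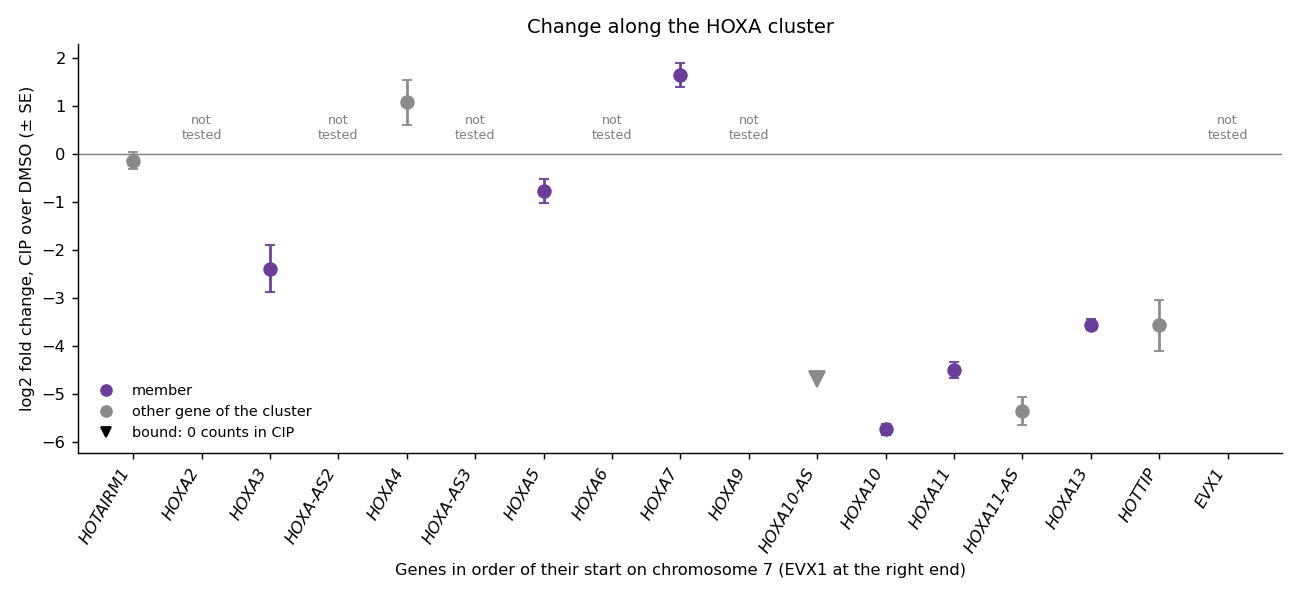
Log2 fold change (CIP over DMSO, ± SE from edgeR) of the genes of the HOXA cluster in chromosome order, members in purple and other genes in grey. The triangle is a bound for HOXA10-AS, with 0 counts in CIP libraries. HOXA10 to HOTTIP lie at -3.55 or below, HOXA7 at 1.65, and HOTAIRM1 near 0.

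Beyond the cluster the change did not run on at the same size. Within 1 Mb on either side, 11 genes were tested, of which 2 were called higher and 7 lower. Over all tested genes 73.1% were called, 34.9% higher and 38.2% lower, and the region was not tested as a set. Log2 fold changes of the 11 genes ran from -1.24 to 0.57. The largest belonged to TAX1BP1, an autophagy receptor, at 272.8 ± 9.13 CPM in CIP libraries and 646.2 ± 23.1 CPM in DMSO libraries (log2 fold change -1.24 ± 0.06, edgeR adjusted p = 9.8e-19). JAZF1, a zinc finger gene, had 6.58, 6.95 and 7.05 CPM in CIP libraries, against 13.8, 13.5 and 14.3 CPM in DMSO libraries (-1.02 ± 0.21, adjusted p = 5.1e-05). Around PBX3, 17 genes were tested, 10 of them called higher and 3 lower, to be read beside the same shares over all tested genes. The 3 lower ones, OLFML2A, MVB12B and RALGPS1, passed the filter through the DMSO libraries, so their calls are descriptions. MVB12B, an ESCRT-I subunit that lies 359 kb beyond PBX3, had 2, 1 and 2 counts in CIP libraries, against 399, 449 and 397 counts in DMSO libraries (-7.81 ± 0.28, adjusted p = 7.1e-23). HSPA5, an endoplasmic reticulum chaperone on the other side, averaged 967.2 ± 53.7 CPM in CIP libraries and 506.7 ± 7.57 CPM in DMSO libraries (0.93 ± 0.06, adjusted p = 1.6e-15).

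Outside the HOXA cluster, HOX reads in DMSO libraries came mainly from HOXC genes. Of 9 HOXC genes, 6 passed the filter, all through the DMSO libraries, so that each could only come out lower, and their values are given as a description. HOXC4 had 1, 0 and 0 counts in CIP libraries, against 314, 300 and 289 counts in DMSO libraries, a ratio of 871 (exact 95% interval 156 to 34400). HOXC6 had 1, 0 and 2 counts in CIP libraries, against 315, 333 and 305 counts in DMSO libraries, a ratio of 306 (105 to 1490). HOXC10 had 0.169 ± 0.156 CPM in CIP libraries and 15.61 ± 0.592 CPM in DMSO libraries (SD, n = 3 each; log2 fold change -6.37 ± 0.41, edgeR adjusted p = 8.9e-16, and -7.01 without CIP replicate 2). HOXC8 was at 1 count over the CIP group and 5.962 ± 0.96 CPM in DMSO libraries, and HOXC5 and HOXC9 had 0 counts in CIP libraries and were at least 20.7-fold and 52.1-fold lower. HOXC4, HOXC5 and HOXC6 overlap one another, so their reads may be shared.

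No HOXB or HOXD gene reached the filter. HOXB genes summed to 0 to 0.462 CPM in CIP libraries and 0.226 to 0.89 CPM in DMSO libraries. HOXD13 was the HOXD gene with most reads, 14, 1 and 10 counts in CIP libraries, against 0 counts in each DMSO library, and HOXD genes summed to 0.102 to 1.73 CPM in CIP libraries, against 0.231 to 0.503 CPM for HOXC genes in CIP libraries. In DMSO libraries HOX reads thus came from HOXA and HOXC, and in CIP libraries nearly all came from HOXA, with the sums of the 8 HOXA members given above.

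**Figure D3:**
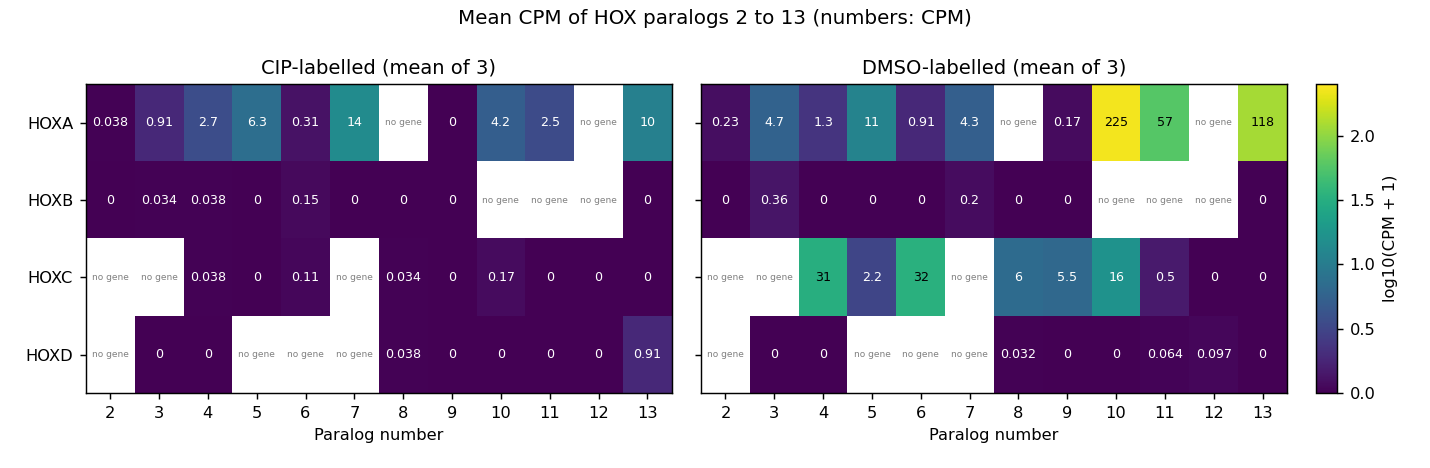
Mean CPM of HOX genes of paralog groups 2 to 13 in CIP libraries (left) and DMSO libraries (right), coloured by log10(CPM + 1), with the CPM printed in each cell and cells marked where the human genome has no such gene. HOXC4 to HOXC10 and the posterior HOXA genes stand out in DMSO libraries, and HOXA7 and HOXA13 lead the CIP map.

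The other TALE genes went both ways. MEIS2, a close relative of MEIS1, had 39.7, 37.4 and 36.0 CPM in CIP libraries, against 5.63, 4.98 and 5.53 CPM in DMSO libraries. Its log2 fold change was 2.81 ± 0.16 (edgeR adjusted p = 4.4e-17), 7.01-fold higher with the CIP label and without overlap between groups. MEIS3 had 0, 0 and 1 counts in CIP libraries, against 13, 20 and 17 counts in DMSO libraries. Of the MEIS genes, MEIS2 was thus nearly the sole one read in CIP libraries, and MEIS1 the most read in DMSO libraries.

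PBX2, a widely expressed PBX gene, was at 28.2, 28.7 and 28.6 CPM in CIP libraries, against 31.4, 23.8 and 34.2 CPM in DMSO libraries, with a log2 fold change of -0.06 ± 0.13 that was not called (edgeR adjusted p = 0.68). PBX4 had 0.115, 0.511 and 0.403 CPM in CIP libraries, against 4.15, 5.07 and 4.74 CPM in DMSO libraries (-3.68 ± 0.52, adjusted p = 1.3e-07). PKNOX1, a MEIS-like gene that also binds PBX proteins, fell modestly, to 20.33 ± 0.363 CPM in CIP libraries, against 33.62 ± 2.48 CPM in DMSO libraries (-0.73 ± 0.13, adjusted p = 7.1e-06). TGIF1, a repressor, averaged 7.917 ± 1.43 CPM in CIP libraries and 3.712 ± 1.36 CPM in DMSO libraries (1.08 ± 0.29, adjusted p = 0.0015). TGIF2 was not called (0.26 ± 0.13, adjusted p = 0.073), and PKNOX2 had 1 count over all libraries. Of 8 other TALE genes, 7 were tested, with 2 called higher, 3 lower and 2 not called, and of the lower ones MEIS3 and PBX4 passed the filter through the DMSO libraries.

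**Figure D4:**
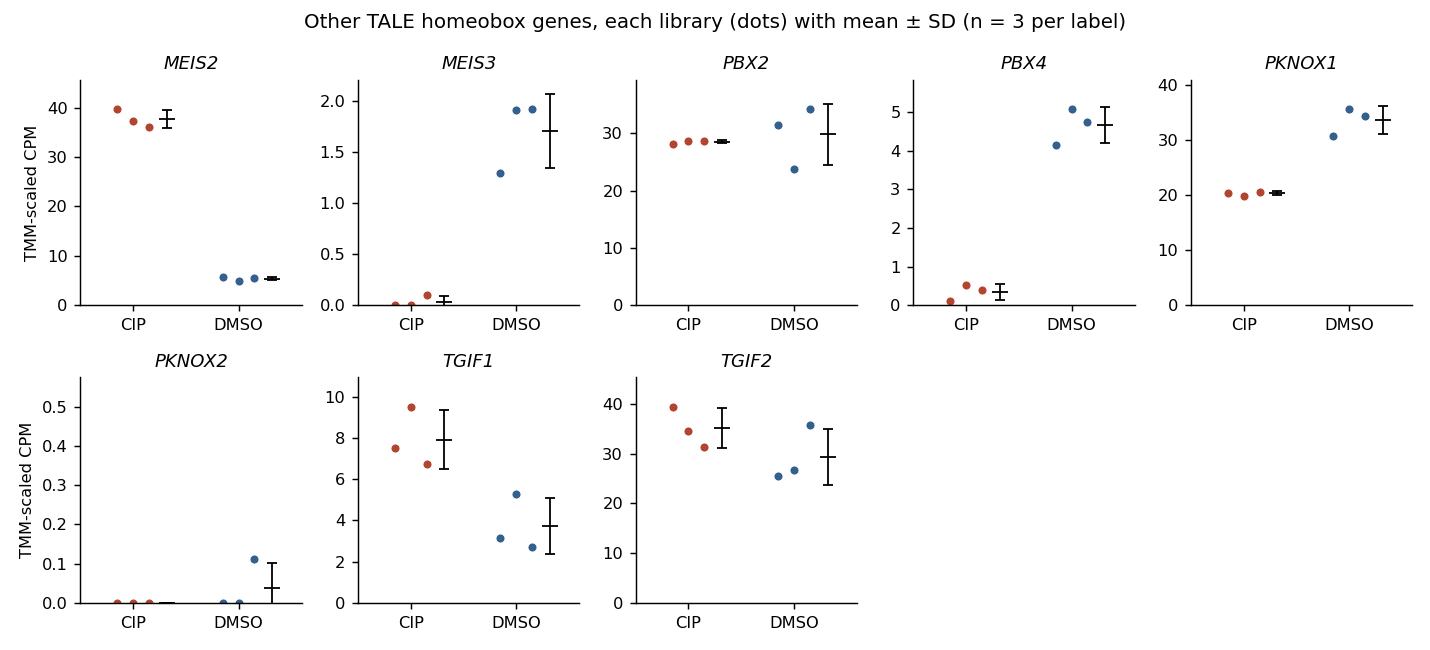
Level of 8 other TALE homeobox genes in each library, in TMM-scaled CPM on axes that start at 0 and differ between panels, with CIP on the left and DMSO on the right. Bars are the mean ± SD of 3 libraries. MEIS2 is higher in every CIP library, PBX4 and MEIS3 are lower, and PBX2 overlaps.

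Genes linked to HOXA activity were mostly higher or not called in CIP libraries. Some of them, such as NUP98 and NPM1, are linked to it through leukaemia fusions or mutations. Of 25 listed (the CDX genes, KMT2A with its complex, the DOT1L group and others), 22 were tested, 11 called higher, 3 lower and 8 not called, with a median log2 fold change of 0.26 against -0.03 over all tested genes, of which 73.1% were called. KMT2A, the methyltransferase that maintains HOXA transcription, averaged 294.1 ± 6.46 CPM in CIP libraries and 179.5 ± 10.2 CPM in DMSO libraries (0.71 ± 0.07, edgeR adjusted p = 1.3e-11). NUP98, a nucleoporin and leukaemia fusion partner, averaged 36.08 ± 7.21 CPM in CIP libraries and 11.34 ± 1.52 CPM in DMSO libraries (1.67 ± 0.16, adjusted p = 2.0e-11). MLLT3, MLLT10 and AFF1, all known as KMT2A fusion partners, had log2 fold changes of 1.38 ± 0.30, 1.19 ± 0.14 and 1.17 ± 0.15, each called higher. PSIP1, which tethers menin and KMT2A to chromatin, was lower, at 74.21 ± 7.03 CPM in CIP libraries and 160.8 ± 9.43 CPM in DMSO libraries (-1.11 ± 0.08, adjusted p = 1.5e-14). KAT6A, an acetyltransferase, was lower as well (-1.19 ± 0.07, adjusted p = 1.6e-16). Scaled by library totals alone, 8 were called lower. CDX1 and CDX4 had 0 counts in all libraries, and CDX2, an activator of HOX genes, had 2, 4 and 2 counts in CIP libraries, against 0 counts in each DMSO library.

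Of 13 genes reported as targets of HOXA9 and MEIS1 in leukaemia, all were tested, and 4 were called higher and 9 lower, with a median log2 fold change of -0.58. Over all tested genes 34.9% were called higher and 38.2% lower, with a median of -0.03. FLT3 passed the filter through the CIP libraries and MEF2C through the DMSO libraries, so the direction of these 2 was set by the filter. ERG and TRIB2 reached the limit of the filter in 2 CIP libraries and 3 DMSO libraries. They too passed through the DMSO libraries, and their calls as lower are descriptions. FLT3, a receptor tyrosine kinase known as a MEIS1 and HOXA9 target in mouse leukaemia models, had 25.4, 27.5 and 23.8 CPM in CIP libraries, against 1.09, 0.861 and 0.339 CPM in DMSO libraries. Its log2 fold change was 5.01 ± 0.27 (edgeR adjusted p = 9.2e-18). The filter set the direction of MEIS1 as well as that of FLT3, so their opposite signs are a description. BCL2, an inhibitor of apoptosis, was also higher, at 59.28 ± 1.16 CPM in CIP libraries and 11.94 ± 0.369 CPM in DMSO libraries (2.31 ± 0.12, adjusted p = 3.7e-18). MEF2C, a transcription factor of KMT2A-rearranged leukaemia, had 0, 0 and 5 counts in CIP libraries, against 71, 54 and 53 counts in DMSO libraries (-5.01 ± 0.60, adjusted p = 4.4e-09). All of its CIP counts lay in CIP replicate 3, and without that library the log2 fold change was -8.86, a value that depends on the prior count. PIM1, a kinase of survival signalling, was 9-fold lower, at 5.999 ± 1.64 CPM in CIP libraries and 54.01 ± 7.95 CPM in DMSO libraries (-3.18 ± 0.16, adjusted p = 1.9e-18). ID2, a helix-loop-helix inhibitor, and TRIB2, a pseudokinase that degrades C/EBP alpha, were lower by log2 fold changes of -2.51 ± 0.15 and -2.08 ± 0.42. The smallest of the 13, IGF1R (-0.23 ± 0.09, adjusted p = 0.018), lost its call without CIP replicate 3 (adjusted p = 0.14).

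Partners that sit with HOXA9 at enhancers were tested in 8 of 8 cases, with 5 called higher, 1 lower and 2 not called, and a median log2 fold change of 1.16. That 6 of 8 were called is near the 73.1% called over all tested genes, whose median was -0.03. SPI1 and CEBPA, myeloid lineage factors, were both called higher. SPI1 averaged 45.07 ± 1.55 CPM in CIP libraries and 14.96 ± 2.49 CPM in DMSO libraries, and CEBPA averaged 395.3 ± 30.9 CPM in CIP libraries and 139.6 ± 10.1 CPM in DMSO libraries. RUNX1 and the methyltransferase genes KMT2D and KMT2C had 1.26 ± 0.14, 1.34 ± 0.12 and 1.06 ± 0.07, each called higher. STAT5A, a signal transducer of cytokine receptors, was the lower gene, at 3.097 ± 1.43 CPM in CIP libraries and 34.45 ± 2.49 CPM in DMSO libraries (-3.49 ± 0.21, edgeR adjusted p = 1.4e-16), while STAT5B was not called (0.28 ± 0.18, adjusted p = 0.16). STAT5A and STAT5B are near-identical neighbours over much of their coding sequence, but counts here come from close to the poly(A) tail. Whether any reads were shared between them was not tested.

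**Figure D5:**
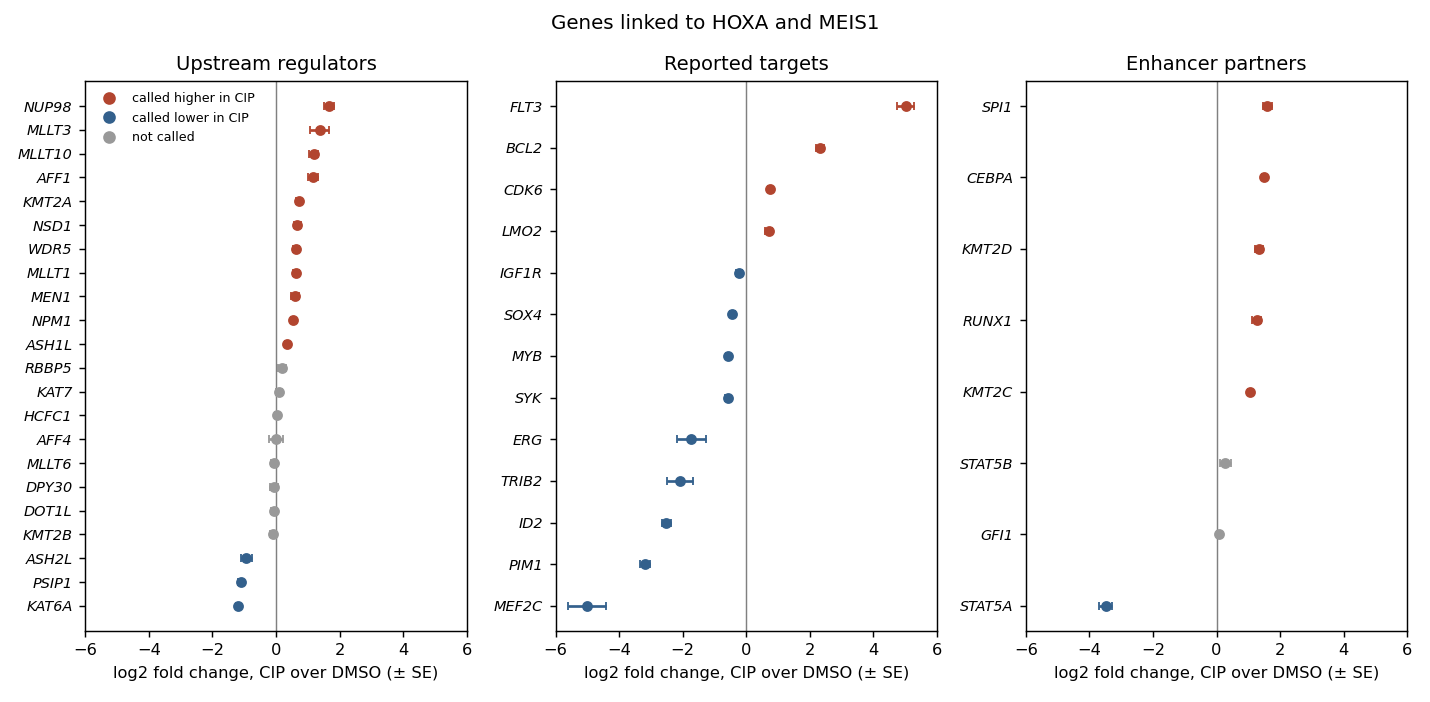
Log2 fold change (CIP over DMSO, ± SE from edgeR) of the tested upstream regulators, reported targets and enhancer partners of HOXA and MEIS1, red where called higher in CIP, blue where called lower and grey where not called. FLT3 lies at 5.01 and MEF2C at -5.01, the second of them resting on 5 counts in CIP replicate 3.

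The 5 genes whose profile over the 6 libraries was closest to that of the summed HOXA members, by root mean square difference in log2(CPM + 1), were SERPINB1 (0.27), PRKCB (0.35), ANXA6 (0.43), CAPG (0.45) and LAMP5 (0.54). SERPINB1, an inhibitor of neutrophil proteases, had 40.3, 36.3 and 26.0 CPM in CIP libraries, against 479, 478 and 495 CPM in DMSO libraries. PRKCB, a protein kinase C isoform, averaged 51.15 ± 7.88 CPM in CIP libraries and 361.9 ± 12.7 CPM in DMSO libraries. With 2 groups of 3 libraries, likeness reflects level and fold alone.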

How the data were processed

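The authors deposited unnormalized counts for each gene symbol in every library, per the file headers, and the values are whole numbers with unequal totals. Build GRCh38, bcl2fastq 2.20.0.422, fastp, STAR and HTSeq are named in the submitters' processing notes without settings, while nothing used here states the annotation release or strand setting. Libraries were QuantSeq preparations from total RNA, per the labels' protocols. Whether molecular identifiers were used is not stated, and intervals and floors therefore describe counting error alone. No 2 libraries of a group were alike within sampling noise (chi-square per gene 3.82 to 7.66).

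Counts were tested with edgeR 4.0.16 in R 4.3.3 (quasi-likelihood, robust, filterByExpr, TMM factors 0.914 to 1.09, group alone, 2-sided, Benjamini-Hochberg over 12844 genes). SE is the log2 fold change divided by the square root of F. With 3 against 3 libraries an exact permutation test cannot go below p = 0.10. A fold against 0 counts is a bound at 3 counts over the group. In simulated counts (12222 genes), the fit found 31 of 67 genes altered by 1.5-fold, 54 of 67 by 2-fold and 65 of 66 by 4-fold, with 7 false calls. Far fewer genes were altered there than the 73.1% called in these data, so these rates need not hold for this comparison. Alternatives were RLE scaling, library totals, other filters, no robust fitting, DESeq2 1.42.0, limma-voom 3.58.1, a replicate block and leaving out each library. The members and lists were chosen with earlier results of these data known. Named genes were all members, TALE genes, other HOX genes at 1 CPM, up to 6 called genes per list and 4 per neighbourhood at 5 CPM by size of change, and the 5 most similar genes, of which a part is given. KMT2A, IGF1R, STAT5B, the CDX genes and HOXD13 were added after their values were seen. Positions and promoters come from RefSeq (GRCh38.p14). Some genes of these lists are not reported here.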

Additional observations from a re-analysis of the deposited data

How the results depend on the processing

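Of the 8 tested members, all kept direction in every alternative. All kept their call except HOXA5, which reached an edgeR adjusted p of 0.069 without CIP replicate 1. HOXA3 and MEIS1 passed the filter through the DMSO libraries and had to come out lower. That they kept direction and call after filtering is therefore a description. Across the alternatives other than left-out libraries, log2 fold changes ran from -5.96 to -5.71 (HOXA10), 1.42 to 1.71 (HOXA7) and -1.25 to -1.01 (PBX3). With a library left out they ran from -3.04 to -2.10 for HOXA3, -0.98 to -0.52 for HOXA5, 1.38 to 1.82 for HOXA7, -5.79 to -5.67 for HOXA10 and -1.13 to -0.94 for PBX3. With library totals alone, the median over all genes moved from -0.03 to -0.26, calls over all genes were 3459 higher and 5913 lower (63.1% lower) in place of 4482 and 4912 (52.3% lower), and 8 upstream regulators were called lower in place of 3. The count of other HOXA cluster genes called higher was 0 in place of 1 (HOXA4) with library totals alone, no filter, DESeq2, limma-voom and the replicate block, and 0 to 1 with a library left out. With no filter, 1 HOXD gene was called higher. Leaving out a library gave 4316 to 4466 genes called higher and 4829 to 5086 lower. Replicate numbers share only a name (correlations of same-numbered libraries' deviations -0.027 to -0.0099), and the replicate block gave 4306 higher and 4755 lower, with no change among members. Summing HOXA9, HOXA10 and HOXA10-HOXA9 left HOXA10 at -5.73. HOXA9 and HOXA10-HOXA9 held 5 and 4 counts in DMSO libraries, against 6608 for HOXA10, so the sum could hardly move it. Nor can the sum recover reads left out in counting. Depth limits HOXA6 and HOXA9, and the counting of overlapping genes limits HOXA9, HOXA10, HOXA3 and MEIS1.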

Other observations

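Read-through genes as a class were seldom counted. Of the 46 that share a 3' end with a downstream gene, 43 (93.5%) had at most 5 counts over the 6 libraries and 37 had none. Of the 46 downstream genes, 20 (43.5%) had 0 counts in all libraries, against 22.3% of other protein-coding genes. The limit of 5 counts was chosen after HOXA9's total was seen, and how the counting treated such reads was not tested.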
